A study of Mus musculus with 29 samples.

Results

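Tumours from lymph nodes of mice that carry a Myc transgene were compared with B cells from the spleens of wild-type mice, by RNA sequencing. The comparison uses 7 of the 29 libraries of the series: 3 of tumours (Tg_lymphnode) and 4 of wild-type spleen (WT_spleen). The tumours came from Eμ-myc mice of the C57BL/6 strain, in which an immunoglobulin enhancer that is active in the B lineage drives Myc. Tumour nodes were pressed through strainers into cell suspensions and were not purified further, and the labels give no age for these mice. The WT_spleen cells came from C57BL/6 mice without the transgene, aged 6 to 8 weeks, and were enriched on beads that bind B220, a surface form of CD45 found on B cells. Tg_spleen, 4 libraries of B220-enriched spleen B cells from Eμ-myc mice aged 6 to 8 weeks, is used mainly at the end. The groups therefore differ in transgene, tissue, purification and possibly age at once, and these cannot be told apart here. Total RNA was freed of ribosomal RNA before sequencing. Libraries carry replicate numbers 1, 2 and 3 in Tg_lymphnode and 1, 3, 4 and 6 in WT_spleen, and tumours are called by their numbers below. Nothing in the labels says that each library came from a separate animal, so p-values measure the spread between these samples, which may be technical.

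Values are FPKM, fragments per kilobase of transcript scaled to library size, as the authors deposited them for 21819 genes. The files hold no counts. Where the lowest values of short genes are taken as 1 read each, with RefSeq lengths, the scale corresponds to 829000 to 899000 reads in the tumours and 827000 to 1130000 reads in WT_spleen, which is an estimate. The median over all genes was 14.2 to 17.3 FPKM in tumours and 13.3 to 14.5 FPKM in WT_spleen. Differences were tested on log2(FPKM + 0.5), which understates the change of low genes, for the 14758 genes with at least 1 FPKM in at least 3 of the 7 libraries. A gene was called where limma's adjusted p was under 0.05. In the tested genes the median log2 fold change, tumour over wild type, was 0.05. No 2 libraries were identical, and the highest correlation between any pair was 0.978. Rpph1, the RNA of ribonuclease P, stood at 442640, 608649 and 517632 FPKM in the tumours and at 698889, 735331, 210796 and 153474 FPKM in WT_spleen 1, 3, 4 and 6, so that the wild-type libraries fell into pairs by this gene. Every tumour lay between these pairs. The Tg_spleen libraries fell into pairs too, at 545353, 633095, 215865 and 208019 FPKM in Tg_spleen 2, 3, 4 and 5.

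Myc is a transcription factor that pairs with Max at E-box sequences, and it is known for raising the genes of ribosome assembly, nucleotide synthesis and cell division. Eμ-myc mice are a classic model of B cell lymphoma, in which the arrest and death programmes run by Arf, p53 and the Bcl2 family are known to restrain Myc. Resting follicular B cells, by contrast, carry receptors for antigen, chemokines and complement and divide little.

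The libraries were first set against their labels. Tumours 1 and 2 held Ebf1 at levels near those of wild-type B cells. Ebf1, a factor that sets B cell identity, stood at 1189 and 1246 FPKM in tumours 1 and 2, against 1669, 1441, 1710.2 and 1161 FPKM in WT_spleen. Without tumour 3, however, 10 of the 12 B lineage markers were called lower. One of them, Ms4a1, stood at 2262 and 2935 FPKM in tumours 1 and 2, against 7455 to 9963 FPKM in WT_spleen. The library labelled Tg_lymphnode replicate 3 went against its label in genes of the B lineage, with 55.6 FPKM of Cd79a, 18.9 of Blk, 18.8 of Ebf1 and 109.5 of Pax5. Vpreb3, a gene of B cell precursors that was chosen after its values were seen, was listed at 0 in tumour 3 and at 2103 and 1364 FPKM in tumours 1 and 2, against 557 to 698 FPKM in WT_spleen.

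Tumour 3 was instead high in several markers of plasmacytoid dendritic cells, the interferon-producing cells of lymphoid tissue. Siglech, a receptor on those cells, stood at 11.6, 23.2 and 2655 FPKM in tumours 1, 2 and 3, against 24.7, 15.0, 99.4 and 144 FPKM in WT_spleen. Cox6a2, a subunit of the respiratory chain that marks the same cells, stood at 5.5, 10.1 and 1305 FPKM in the tumours and at 20.2 to 127 FPKM in WT_spleen. Irf8 and Tcf4, factors needed by plasmacytoid dendritic cells, stood at 5194 and 815 FPKM in tumour 3, against 1454 to 1632 and 304 to 382 FPKM in WT_spleen. Not every marker of that list was high, since Pacsin1 was at 11.2 FPKM in tumour 3 and at 53.3 to 64.7 FPKM in WT_spleen. The sum over the 12 markers was 2096, 3699 and 25180 FPKM in tumours 1, 2 and 3, against 6481 to 9153 FPKM in WT_spleen. Tumour 3 also held Cd4 at 9468 FPKM and Cd8b1 at 7615 FPKM, co-receptors of T cells, against 35.9 to 73.6 and 22.2 to 55.7 FPKM in WT_spleen. Cd8a, another T cell marker, did not share this level, at 86.4 FPKM in tumour 3 and 98.0 FPKM in tumour 2, against 21.6 to 37.7 FPKM in WT_spleen. The chains of the CD3 complex, which T cells need for their receptor, were far lower in tumour 3 than Cd4 and Cd8b1, with 91.5 FPKM of Cd3d, 62.8 of Cd3e and 205 of Cd3g, against 193, 143 and 248 FPKM in tumour 2. Siglech, Cox6a2, Irf8, Tcf4, Cd4, Cd8a, Cd8b1, Cd3d and Cd3g were chosen after their values were seen. Tumour 3 was kept in the comparison, and counts are given with and without it.

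**Figure D1:**
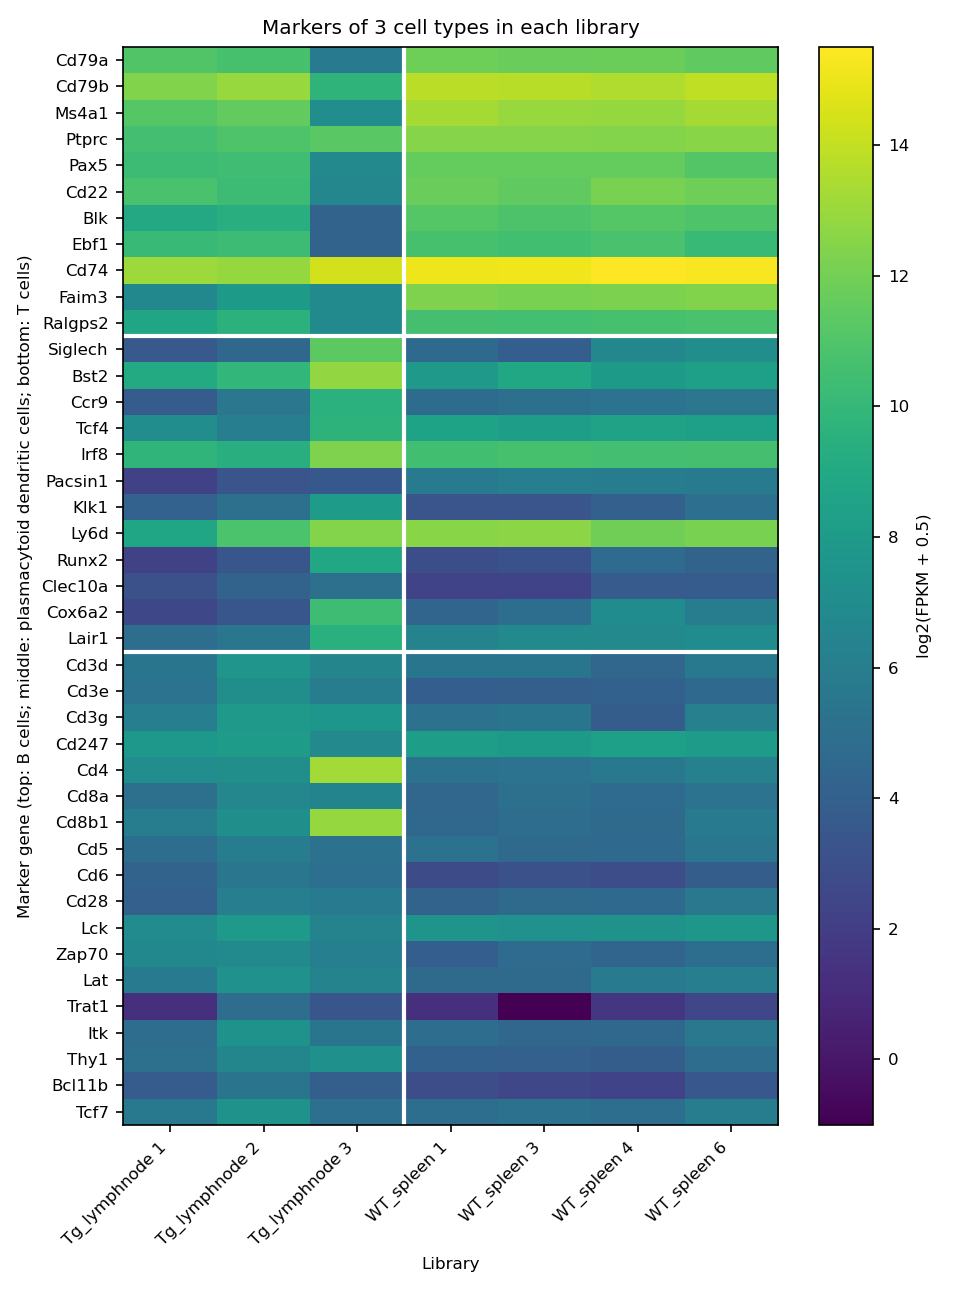
Level of each marker gene as log2(FPKM + 0.5), by colour, in the 3 Tg_lymphnode and 4 WT_spleen libraries (columns), with B cell markers at the top, plasmacytoid dendritic cell markers in the middle and T cell markers at the bottom. Tumour 3 is dark in most B cell rows, with Cd79a at 55.6 FPKM, and bright for Siglech at 2655 FPKM and Cd4 at 9468 FPKM.

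Sex-linked genes differed within both groups. The Y-linked genes Ddx3y, Eif2s3y, Kdm5d and Uty stood at 221, 431, 117 and 153 FPKM in tumour 1 and at or below 1.3 FPKM in tumours 2 and 3. They were high in WT_spleen 1, 3 and 4 and at or below 0.5 FPKM in WT_spleen 6. Xist, the RNA of the inactive X, stood at 175, 4788 and 4348 FPKM in the tumours and at 7.9, 0.7, 0.4 and 1368 FPKM in WT_spleen. Both groups thus held libraries with and without Y-linked RNA, and tumour 1 held both Xist and Y-linked RNA.

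Genes known from other tissues were higher in the tumours. The 19 fibroblast and matrix genes in the files summed to 848 to 1029 FPKM in tumours and 25.9 to 40.0 FPKM in WT_spleen. Salivary gland genes summed to 1360.0 to 8077 FPKM in tumours, against 49.7 to 72.3 FPKM in WT_spleen, and pancreas genes to 2304 to 13410 FPKM, against 54.0 to 240.4 FPKM. Genes of red pulp macrophages, which are cells of the spleen, summed to 361 to 620.2 FPKM in tumours and 3518 to 5346 FPKM in WT_spleen. In each of these 4 lists the groups did not overlap in their sums. The part of such cells in the differences below was not tested, and in bulk RNA fewer cells of a type and less RNA per cell cannot be told apart.

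The microRNAs of the miR-17-92 cluster, a known oncogenic partner of Myc in B cell lymphoma, are made from the transcript Mir17hg. They are printed because Mir17hg is one of the genes that rose, and they share seeds. The mature sequences, from RefSeq (GRCm38.p6, chromosome 14, plus strand), were matched by gene symbol, and capitals mark the seed, bases 2 to 8, by which a microRNA finds its targets.
mmu-miR-17-5p: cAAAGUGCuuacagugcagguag
mmu-miR-20a-5p: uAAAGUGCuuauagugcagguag
mmu-miR-18a-5p: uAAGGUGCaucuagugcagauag
mmu-miR-19a-3p: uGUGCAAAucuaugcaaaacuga
mmu-miR-19b-3p: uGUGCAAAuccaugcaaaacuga
mmu-miR-92a-3p: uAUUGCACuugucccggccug
miR-17-5p and miR-20a-5p share the seed AAAGUGC, miR-19a-3p and miR-19b-3p share GUGCAAA, and miR-18a-5p and miR-92a-3p have seeds of their own. Mir17hg stood at 539, 477 and 379 FPKM in the tumours, against 87.8, 84.8, 107 and 137 FPKM in WT_spleen, and rose (log2 fold change 2.17, SE 0.21, adjusted p = 0.000269). The groups did not overlap. The rows of the hairpins lie inside that transcript, so they read the host RNA and not mature microRNA. They were chosen after the values of Mir17hg were seen. Of these rows, Mir18 stood at 666, 833 and 646 FPKM in tumours and 75.5, 112, 149 and 203 FPKM in WT_spleen and rose (log2 fold change 2.49). Mir19a (log2 fold change 2.26) and Mir20a (log2 fold change 2.65) also rose, while Mir17 did not pass the test at 144, 92.6 and 55.7 FPKM in tumours and 43.1, 42.7, 10.6 and 42.2 FPKM in WT_spleen (adjusted p = 0.0564). Mir19b-1 stood at 0, 0 and 26.9 FPKM in tumours 1, 2 and 3 and 13.9, 0, 0 and 10.2 FPKM in WT_spleen. The hairpin rows are short, so on the estimated read scale values this low may rest on very few reads. That holds for Mir17 at 10.6 FPKM too, and whether Mir19b-1 followed the host cannot be told.

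Promoters of gene groups that moved together were searched for 4 short motifs known from such genes. The windows run from 250 bases before to 50 after the start in RefSeq (GRCm38.p6), were matched by symbol for 14664 genes of the files and were read on both strands. The E-box CACGTG, which Myc and Max bind, was found in 9.5% of these windows, in 11.2% of those of the 10077 tested genes, in 22.7% of those of ribosome biogenesis genes (10 of 44) and in 23.1% of those of purine synthesis genes (3 of 13). It was in 5.7% of the windows of spindle genes (2 of 35) and 6.5% of those of B cell receptor signalling genes (2 of 31). TTTNNCGC, a core of E2F sites, was found in 7.5% of all windows, in 9.2% of those of tested genes and in 44.8% of those of origin licensing and replication fork genes (13 of 29), and in none of 11 class II antigen presentation or 31 B cell receptor signalling windows. TTTGAA, the core of the cell cycle homology region of mitotic genes, was found in 17.5% of all windows, 14.6% of those of tested genes and 71.4% of those of spindle genes (25 of 35). CCAAT was found in 42.5% of all windows, in 42.6% of those of tested genes, in 74.3% of those of spindle genes (26 of 35), in 81.8% of those of class II antigen presentation genes (9 of 11) and in 29.0% of those of B cell receptor signalling genes (9 of 31). These matches are descriptions of letters and not binding sites. One window of each kind is printed, from a gene that is named below, with the match in capitals.
Nop2 promoter (chr6:125131633-125131932, plus strand, E-box): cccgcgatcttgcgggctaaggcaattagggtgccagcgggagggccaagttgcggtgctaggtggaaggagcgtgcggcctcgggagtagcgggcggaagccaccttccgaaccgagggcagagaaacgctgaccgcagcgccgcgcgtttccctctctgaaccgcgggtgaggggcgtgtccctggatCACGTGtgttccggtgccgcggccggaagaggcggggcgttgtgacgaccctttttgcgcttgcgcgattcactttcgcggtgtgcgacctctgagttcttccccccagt
Cdc6 promoter (chr11:98907901-98908200, plus strand, E2F letters on the other strand): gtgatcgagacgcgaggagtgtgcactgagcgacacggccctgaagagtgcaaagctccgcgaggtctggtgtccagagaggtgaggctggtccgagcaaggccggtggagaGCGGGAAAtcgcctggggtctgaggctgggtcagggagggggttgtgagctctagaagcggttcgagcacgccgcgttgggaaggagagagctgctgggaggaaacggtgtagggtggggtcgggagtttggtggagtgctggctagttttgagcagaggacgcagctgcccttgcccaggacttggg
Cenpf promoter (chr1:189688037-189688336, minus strand, TTTGAA): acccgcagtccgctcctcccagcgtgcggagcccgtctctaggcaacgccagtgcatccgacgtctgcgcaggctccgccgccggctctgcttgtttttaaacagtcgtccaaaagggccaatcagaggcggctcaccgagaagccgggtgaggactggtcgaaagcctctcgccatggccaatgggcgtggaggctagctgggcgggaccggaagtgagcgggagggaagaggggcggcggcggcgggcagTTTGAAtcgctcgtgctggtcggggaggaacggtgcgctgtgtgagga
H2-Ob promoter (chr17:34238655-34238954, plus strand, CCAAT on the other strand): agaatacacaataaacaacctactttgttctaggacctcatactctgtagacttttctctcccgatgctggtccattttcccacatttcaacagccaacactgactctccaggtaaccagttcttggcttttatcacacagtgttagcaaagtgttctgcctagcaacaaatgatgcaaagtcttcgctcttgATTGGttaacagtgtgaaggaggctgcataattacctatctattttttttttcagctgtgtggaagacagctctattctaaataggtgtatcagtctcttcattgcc
The Nop2 window also holds an E2F match and the Cenpf window also holds CCAAT, and neither overlaps the motif shown. Nop2, a methyltransferase of ribosomal RNA chosen after its values were seen, stood at 747, 829 and 684 FPKM in tumours, against 242, 290.1, 299.7 and 337 FPKM in WT_spleen, and rose (log2 fold change 1.37, SE 0.15, adjusted p = 0.000509).

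Over all genes, 2997 were higher in tumours (20.3% of the 14758 tested) and 2619 were lower (17.7%), 38.1% in all. Of these, 2028 rose and 1585 fell by at least 2-fold. The values of the 2 groups did not overlap for 6699 genes (45.4%). Without tumour 3, 3093 genes were higher (21.6% of 14303 tested) and 3161 lower (22.1%). Of the 5616 calls, 4902 (87.3%) were also made without tumour 3 in the same direction, 437 were not called, 277 were not tested and 0 turned round. The shares of calls are the background against which each list below is read. Some genes passed the filter on low values only through the wild-type libraries, so their falls are not read as tests. Among them were 7 of 25 progenitor and recombination genes, 2 of 37 B cell transcription factors, 1 of 19 Polycomb and DNA methylation genes and 1 of 8 red pulp macrophage genes. So were 1 of 36 homing receptors and 1 of 38 follicular and marginal zone genes. Those called stay in the counts of falls. When the libraries were rescaled to genes of no other cell type, the median of all tested genes moved by -0.107 on the log2 scale, and no called gene named below changed direction.

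Myc itself was the gene the transgene carries, and it was high in every tumour. Myc stood at 2123, 2179 and 1759 FPKM in the tumours, against 227, 273, 215 and 191 FPKM in WT_spleen, and rose (log2 fold change 3.16, SE 0.17, adjusted p = 8.04e-05). The lowest tumour lay above the highest wild-type library, and reads from the transgene and from the endogenous gene cannot be told apart in these values. Of 16 tested genes of the Myc network, 2 rose and 2 fell, with a median log2 fold change of -0.12. Max, the obligate partner of Myc, stood at 296, 293 and 292 FPKM in tumours and 321, 332, 354 and 278 FPKM in WT_spleen, and did not pass the test (adjusted p = 0.481). Mxd3, a repressor that competes for Max, stood at 86.3, 46.2 and 67.6 FPKM in tumours and 30.7, 34.9, 22.7 and 27.3 FPKM in WT_spleen, and rose (log2 fold change 1.16, SE 0.28, adjusted p = 0.0126). Bin1, an adaptor that binds Myc, stood at 475, 318 and 290.3 FPKM in tumours, against 848, 794, 1058 and 859.7 FPKM in WT_spleen, and fell (log2 fold change -1.33, SE 0.20, adjusted p = 0.002). The groups did not overlap for Mxd3 or Bin1. Mnt, another Max partner and antagonist of Myc, stood at 85.2, 71.5 and 48.5 FPKM in tumours and 111, 116, 149.8 and 86.6 FPKM in WT_spleen (log2 fold change -0.77, SE 0.26, adjusted p = 0.0451), and its call was lost without tumour 2, tumour 3, WT_spleen 1, WT_spleen 3 or WT_spleen 4 (adjusted p = 0.0772 to 0.112). Mxi1, at 67.6, 34.9 and 61.5 FPKM in tumours and 28.6, 26.2, 29.1 and 35.4 FPKM in WT_spleen, just missed the threshold (adjusted p = 0.0509), and Mycn, the neuronal relative, stayed at or below 3.2 FPKM in tumours and at 1.4 to 6.4 FPKM in WT_spleen.

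The largest rises among genes with at least 100 FPKM in the tumours included enzymes, chaperone partners and secreted proteins. Car12, a carbonic anhydrase of the cell surface, stood at 165, 176 and 332 FPKM in tumours, against 0.7, 1.0, 1.2 and 1.2 FPKM in WT_spleen (log2 fold change 7.14, SE 0.35, adjusted p = 8.04e-05). Akap1, an anchor of protein kinase A on mitochondria, stood at 301, 329.9 and 391 FPKM in tumours and 7.7, 10.5, 8.3 and 11.8 FPKM in WT_spleen (log2 fold change 5.09, SE 0.23, adjusted p = 6.98e-05). Bcat1, which breaks down branched-chain amino acids in the cytosol, stood at 236, 253 and 89.3 FPKM in tumours and 5.5, 4.0, 4.2 and 6.1 FPKM in WT_spleen (log2 fold change 5.03, SE 0.40, adjusted p = 0.000144). All 3 were low in each wild-type library and high in each tumour. Clu, an extracellular chaperone, stood at 301, 196 and 183 FPKM in tumours, against 4.0, 5.3, 1.5 and 4.4 FPKM in WT_spleen (log2 fold change 5.79, SE 0.41, adjusted p = 9.55e-05). Bag2, a partner of Hsp70, stood at 140.2, 292 and 144 FPKM in tumours and 9.3, 11.9, 4.9 and 10.3 FPKM in WT_spleen (log2 fold change 4.30, SE 0.39, adjusted p = 0.00022). Ankrd13b stood at 143, 128 and 87.3 FPKM in tumours and 2.2, 1.4, 4.0 and 2.4 FPKM in WT_spleen (log2 fold change 5.36, SE 0.38, adjusted p = 9.55e-05). In these genes, on the log2 scale, the tumours lay closer to each other than to any wild-type library. The next ones spread more widely among tumours. Serpinh1, the collagen chaperone, stood at 44.7, 40.3 and 592 FPKM in tumours 1, 2 and 3, against 2.5, 4.5, 1.1 and 2.2 FPKM in WT_spleen (log2 fold change 5.18). Mmp14, a membrane metalloprotease, stood at 246, 68.9 and 49.1 FPKM in tumours and 3.7, 4.1, 4.8 and 3.4 FPKM in WT_spleen (log2 fold change 4.40). Igfbp4, which binds insulin-like growth factors, stood at 683, 128 and 80.4 FPKM in tumours and 12.3, 16.2, 4.8 and 7.7 FPKM in WT_spleen (log2 fold change 4.29). Serpinh1 was highest in tumour 3, and Mmp14 and Igfbp4 were highest in tumour 1. Fibroblast genes, whose sums are given above, were higher in all 3 tumours, and their part in Serpinh1, Mmp14 and Igfbp4 was not tested. The histone genes Hist2h3c1 (log2 fold change 4.94) and Hist1h2ah (log2 fold change 4.27) were also among the largest rises, but they have near-identical copies among which reads may be split, so their values are uncertain.

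The largest falls were in receptors and signalling genes of mature spleen B cells and in genes of other spleen cells. Cxcr5, the chemokine receptor that leads B cells to follicles, stood at 56.7, 111 and 31.3 FPKM in tumours, against 1620.5, 1711, 1842 and 1935 FPKM in WT_spleen (log2 fold change -4.91, SE 0.37, adjusted p = 0.000125). Fcer2a, the low-affinity IgE receptor CD23 of follicular B cells, stood at 86.6, 122 and 40.7 FPKM in tumours and 2585, 1919, 2483 and 2006 FPKM in WT_spleen (log2 fold change -4.87, SE 0.34, adjusted p = 9.55e-05). Faim3, the Fc receptor for IgM, stood at 104, 251 and 118 FPKM in tumours, against 5069, 4746, 4814 and 5274 FPKM in WT_spleen (log2 fold change -5.09, SE 0.30, adjusted p = 8.04e-05). For these 3 genes every tumour lay far below every wild-type library. Rasgrp3, which links the B cell receptor to Ras, stood at 10.3, 54.7 and 15.0 FPKM in tumours and 811, 655, 841 and 727 FPKM in WT_spleen (log2 fold change -5.17, SE 0.49, adjusted p = 0.000293). Egr3, an early response factor, stood at 6.8, 10.2 and 1.7 FPKM in tumours and 209, 311, 271 and 124 FPKM in WT_spleen (log2 fold change -5.29, SE 0.56, adjusted p = 0.000413). Fcamr, a receptor for IgA and IgM, stood at 1.9, 10.5 and 5.5 FPKM in tumours, against 154, 97.5, 229 and 115 FPKM in WT_spleen (log2 fold change -4.71, SE 0.53, adjusted p = 0.000495). All 3 were low in each tumour, with tumour 2 the highest of the tumours. Fam167a (log2 fold change -4.80), Il24 (log2 fold change -5.09) and Adamdec1 (log2 fold change -4.79) fell as well. The complement gene C6 stood at 0.9, 0.8 and 1.2 FPKM in tumours and 98.2, 139.6, 109.6 and 115 FPKM in WT_spleen (log2 fold change -6.31). C6 passed the filter only through the wild-type libraries, so no test is read for it. Ccr3, known as the eotaxin receptor, stood at 2.6, 7.5 and 3.9 FPKM in tumours and 194, 233, 135 and 227 FPKM in WT_spleen (log2 fold change -5.34, SE 0.36, adjusted p = 9.37e-05). C6 and Ccr3 were low in each tumour. Itgad, an integrin of red pulp macrophages, stood at 1.2, 5.0 and 108 FPKM in tumours 1, 2 and 3, against 268, 321, 341 and 374 FPKM in WT_spleen (log2 fold change -5.01), and its call was lost without tumour 2 (adjusted p = 0.0524). Red pulp macrophage genes were lower in every tumour, and their part in these falls was not tested.

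**Figure D2:**
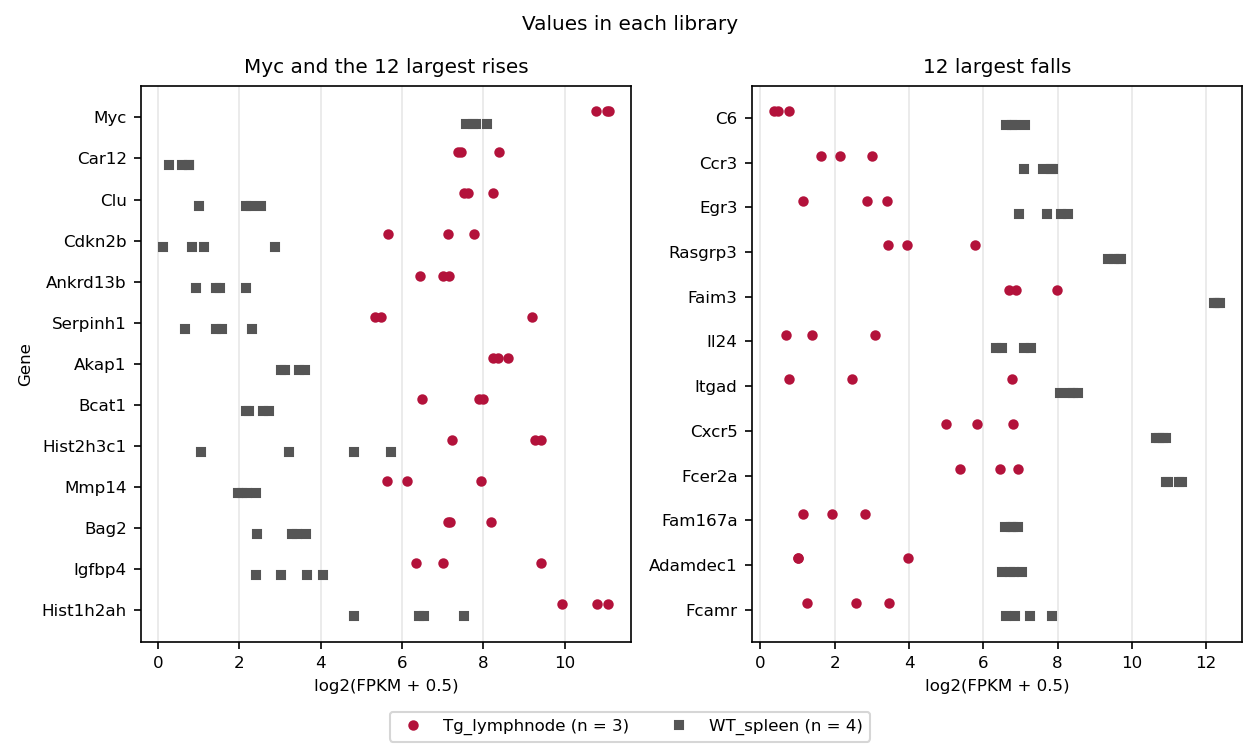
Log2(FPKM + 0.5) of Myc and the 12 largest rises (left) and the 12 largest falls (right), with a point for each Tg_lymphnode library (n = 3) and a square for each WT_spleen library (n = 4). The groups do not overlap in any row, as the rule for naming requires, and Serpinh1, at 592 FPKM in tumour 3, and Itgad, at 108 FPKM, show the widest spread between tumours.

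Genes of cell division rose in each tumour. Of 43 tested genes of the spindle and of chromosome segregation, 41 were higher in tumours and 1 was lower, with a median log2 fold change of 2.58, and the medians in tumours 1, 2 and 3 were 2.94, 2.53 and 2.14. Cenpf, a protein of the outer kinetochore, stood at 418, 386 and 224 FPKM in tumours, against 42.3, 32.1, 31.3 and 25.6 FPKM in WT_spleen (log2 fold change 3.34, SE 0.27, adjusted p = 0.00014). Bub1, a checkpoint kinase of the kinetochore, stood at 312, 362 and 230.2 FPKM in tumours and 30.6, 32.2, 23.5 and 33.7 FPKM in WT_spleen (log2 fold change 3.29, SE 0.22, adjusted p = 9.11e-05). Espl1, the separase that cuts cohesin, stood at 228, 209.8 and 138 FPKM in tumours and 19.9, 16.4, 20.5 and 20.5 FPKM in WT_spleen (log2 fold change 3.25, SE 0.23, adjusted p = 9.55e-05). In all 3 genes the lowest value was in tumour 3, still well above WT_spleen. Pttg1, securin, the inhibitor of separase, was the member that fell, at 43.5, 57.9 and 55.4 FPKM in tumours and 97.9, 84.1, 92.9 and 97.0 FPKM in WT_spleen (log2 fold change -0.83, SE 0.17, adjusted p = 0.00758). Of 37 genes of origin licensing and the replication fork, 31 rose and 0 fell (median 1.66), and 36 rose without tumour 3. Cdc6, which loads the replicative helicase, stood at 167, 182 and 128 FPKM in tumours, against 17.3, 14.0, 14.7 and 21.0 FPKM in WT_spleen (log2 fold change 3.21, SE 0.24, adjusted p = 0.000106). Mcm10 (log2 fold change 3.32), an initiation factor, and Pole (log2 fold change 2.51), the polymerase of the leading strand, rose beside it. Of 24 genes of replication-coupled repair, 18 rose and 1 fell (median 1.44). Exo1, a nuclease, rose (log2 fold change 3.18), as did Fancd2 (log2 fold change 2.80), the Fanconi protein. The member called lower, Trp53bp1, lost its call without tumour 1, tumour 2, tumour 3, WT_spleen 1, WT_spleen 3, WT_spleen 4 or WT_spleen 6 (adjusted p = 0.0563 to 0.1).

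The G1 machinery changed its cyclins. Ccnd1, cyclin D1, stood at 527, 565 and 544 FPKM in tumours, against 36.9, 62.6, 43.7 and 64.0 FPKM in WT_spleen, and rose (log2 fold change 3.42, SE 0.22, adjusted p = 9.05e-05). Ccnd2, cyclin D2, went the other way, at 46.4, 114 and 47.5 FPKM in tumours and 407, 452, 382 and 287 FPKM in WT_spleen (log2 fold change -2.57, SE 0.33, adjusted p = 0.000917). The groups did not overlap for either, so the order of these 2 D cyclins on this per-length scale was opposite between the groups. Ccne2, cyclin E2, stood at 166, 169 and 113 FPKM in tumours and 32.0, 22.1, 20.4 and 29.3 FPKM in WT_spleen (log2 fold change 2.50, SE 0.25, adjusted p = 0.000307). In all, 5 of 9 G1 cyclins and kinases rose and 1 fell. Of the 13 E2F and RB family genes, 5 rose and 2 fell, and 9 rose and 2 fell without tumour 3. Tfdp1, the DNA-binding partner of the E2Fs, stood at 949.7, 716 and 572 FPKM in tumours, against 81.7, 108, 105 and 109 FPKM in WT_spleen (log2 fold change 2.86, SE 0.20, adjusted p = 9.55e-05). The atypical repressors E2f8 (log2 fold change 2.74) and E2f7 (log2 fold change 2.68) rose too. Both pocket proteins named fell, with Rb1 at 181, 249 and 163 FPKM in tumours and 509.6, 409, 478 and 359 FPKM in WT_spleen (log2 fold change -1.16, SE 0.19, adjusted p = 0.00288). Rbl2, p130, stood at 166, 149.8 and 188 FPKM in tumours and 332, 268, 302 and 299 FPKM in WT_spleen (log2 fold change -0.84, SE 0.14, adjusted p = 0.00275).

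CDK inhibitors split by gene and, for one of them, by tumour. Cdkn2b, p15, stood at 141, 218 and 50.4 FPKM in tumours, against 1.7, 6.9, 0.6 and 1.3 FPKM in WT_spleen, and rose (log2 fold change 5.61, SE 0.73, adjusted p = 0.000972). Cdkn1a, p21, stood at 37.4, 32.1 and 65.3 FPKM in tumours and 5.0, 3.7, 5.5 and 3.2 FPKM in WT_spleen, and rose (log2 fold change 3.19, SE 0.37, adjusted p = 0.000538). Cdkn1b, p27, stood at 191, 248 and 239 FPKM in tumours and 652, 648, 518 and 678 FPKM in WT_spleen, and fell (log2 fold change -1.46, SE 0.16, adjusted p = 0.000426). The groups did not overlap for these 3. Cdkn2a, the locus of p16 and Arf, stood at 5.2, 502 and 12.6 FPKM in tumours 1, 2 and 3, against 2.6, 2.6, 1.9 and 0 FPKM in WT_spleen. Every tumour lay above every wild-type library, but tumour 2 stood far above the other two, and the gene did not pass the test (log2 fold change 4.18, SE 1.48, adjusted p = 0.0572; adjusted p = 0.0315 without tumour 1). Gene-level values do not separate p16 from Arf. Cdkn2c (log2 fold change 0.68) and Cdkn2d (log2 fold change -0.45) did not pass the test, and Cdkn1c was at or below 1.7 FPKM in all 7 libraries.

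Many genes of ribosome assembly and protein synthesis rose. Of 51 nucleolar ribosome biogenesis genes, 42 rose and 0 fell (median 0.95). Npm1, nucleophosmin, stood at 6587, 6000.2 and 5818 FPKM in tumours, against 1665, 1711, 1503 and 1839 FPKM in WT_spleen (log2 fold change 1.87, SE 0.18, adjusted p = 0.00027). Gnl3, nucleostemin, stood at 1531, 1481 and 1196 FPKM in tumours and 376, 334, 367 and 416 FPKM in WT_spleen (log2 fold change 1.91, SE 0.15, adjusted p = 0.000146). Rrp1b (log2 fold change 2.34), a factor of ribosomal RNA processing, rose most in that list. Of 29 translation factors, 16 rose and 0 fell. Eif5a, whose hypusine is made from spermidine, stood at 3399.5, 3473 and 2256 FPKM in tumours, against 852, 1069, 918 and 1000.5 FPKM in WT_spleen (log2 fold change 1.64, SE 0.21, adjusted p = 0.000856). Eif4a1 (log2 fold change 1.52), the cap-complex helicase, and Eif2s1 (log2 fold change 1.33), eIF2 alpha, rose too. Of 20 aminoacyl-tRNA synthetases, 15 rose, among them Eprs (log2 fold change 1.29), Gars (log2 fold change 1.15) and Kars (log2 fold change 1.05). Of 22 chaperones, 18 rose, among them Hspd1 (log2 fold change 2.04), the mitochondrial Hsp60. None of the synthetases or chaperones tested passed the test as lower.

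Nucleotide and one-carbon enzymes followed. Of 15 purine synthesis genes, 12 rose and 0 fell. Ppat, the committed step, stood at 442, 561 and 413 FPKM in tumours, against 150.1, 140.1, 126 and 172 FPKM in WT_spleen (log2 fold change 1.68, SE 0.17, adjusted p = 0.000293), and Pfas (log2 fold change 1.71) and Impdh2 (log2 fold change 1.63), of which the second leads to GMP, rose as well. Of 16 pyrimidine and deoxynucleotide genes, 12 rose and 2 fell. Tyms, thymidylate synthase, stood at 219, 212 and 159 FPKM in tumours and 18.7, 22.9, 18.5 and 21.0 FPKM in WT_spleen (log2 fold change 3.24, SE 0.20, adjusted p = 8.69e-05). Rrm2, of ribonucleotide reductase, stood at 762, 834 and 426 FPKM in tumours and 101, 116, 90.1 and 128 FPKM in WT_spleen (log2 fold change 2.58, SE 0.25, adjusted p = 0.000273). The 2 that fell were Samhd1, which destroys deoxynucleotides, at 541, 676 and 732 FPKM in tumours and 1849, 2142, 1988 and 1776 FPKM in WT_spleen (log2 fold change -1.58, SE 0.17, adjusted p = 0.00043), and Ctps2 (log2 fold change -1.35), a CTP synthase. Of 17 serine and folate genes, 12 rose and 0 fell, including Phgdh (log2 fold change 2.11), the entry to serine synthesis, and Slc19a1 (log2 fold change 2.56), the folate carrier. Of 11 polyamine genes, 4 rose and 1 fell. Srm, spermidine synthase, stood at 568, 481 and 429 FPKM in tumours and 77.3, 109.7, 96.1 and 102 FPKM in WT_spleen (log2 fold change 2.35, SE 0.17, adjusted p = 9.55e-05), while Sat1, which acetylates polyamines for export, stood at 178, 242 and 194 FPKM in tumours and 599, 605, 499 and 608 FPKM in WT_spleen (log2 fold change -1.50, SE 0.15, adjusted p = 0.000342).

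Uptake and energy genes were more mixed. Of 26 glycolysis and transport genes, 12 rose and 4 fell. Slc16a1, the lactate carrier MCT1, stood at 1589.9, 957 and 652 FPKM in tumours, against 62.8, 73.9, 64.7 and 92.7 FPKM in WT_spleen (log2 fold change 3.77, SE 0.29, adjusted p = 0.000126). Ldha (log2 fold change 2.09), lactate dehydrogenase A, and Tpi1 (log2 fold change 2.03), triosephosphate isomerase, rose, while Hk3 (log2 fold change -1.82), a hexokinase of myeloid cells, and Pfkfb4 (log2 fold change -1.62) fell. Of 15 amino acid transporters, 8 rose and 1 fell. Slc7a5, the leucine carrier LAT1, stood at 712, 402 and 697 FPKM in tumours, against 68.4, 77.2, 90.4 and 70.2 FPKM in WT_spleen (log2 fold change 2.93, SE 0.23, adjusted p = 0.000125). Slc1a4, a carrier of alanine and serine, stood at 126, 49.0 and 129.7 FPKM in tumours and 5.2, 5.2, 5.2 and 5.0 FPKM in WT_spleen (log2 fold change 4.05, SE 0.38, adjusted p = 0.000257). The member called lower, Slc38a9, lost its call without tumour 1, tumour 2, WT_spleen 1, WT_spleen 3, WT_spleen 4 or WT_spleen 6 (adjusted p = 0.0592 to 0.0717). Of 11 iron genes, 2 rose and 4 fell. Tfrc, the transferrin receptor, stood at 1132, 1347 and 4369 FPKM in tumours 1, 2 and 3, against 278, 224, 234 and 283 FPKM in WT_spleen (log2 fold change 2.89, SE 0.43, adjusted p = 0.00194), and Steap3 (log2 fold change 3.97), a ferric reductase, rose with it. Slc40a1 (log2 fold change -4.14), the iron exporter, and Hmox1 (log2 fold change -4.11), heme oxygenase, fell, and both are also red pulp macrophage markers, whose sum was lower in every tumour. Of 23 cholesterol genes, 12 rose and 1 fell. Sqle (log2 fold change 2.02), of the synthetic pathway, rose, and Abca1 (log2 fold change -2.13), which exports cholesterol, fell.

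**Figure D3:**
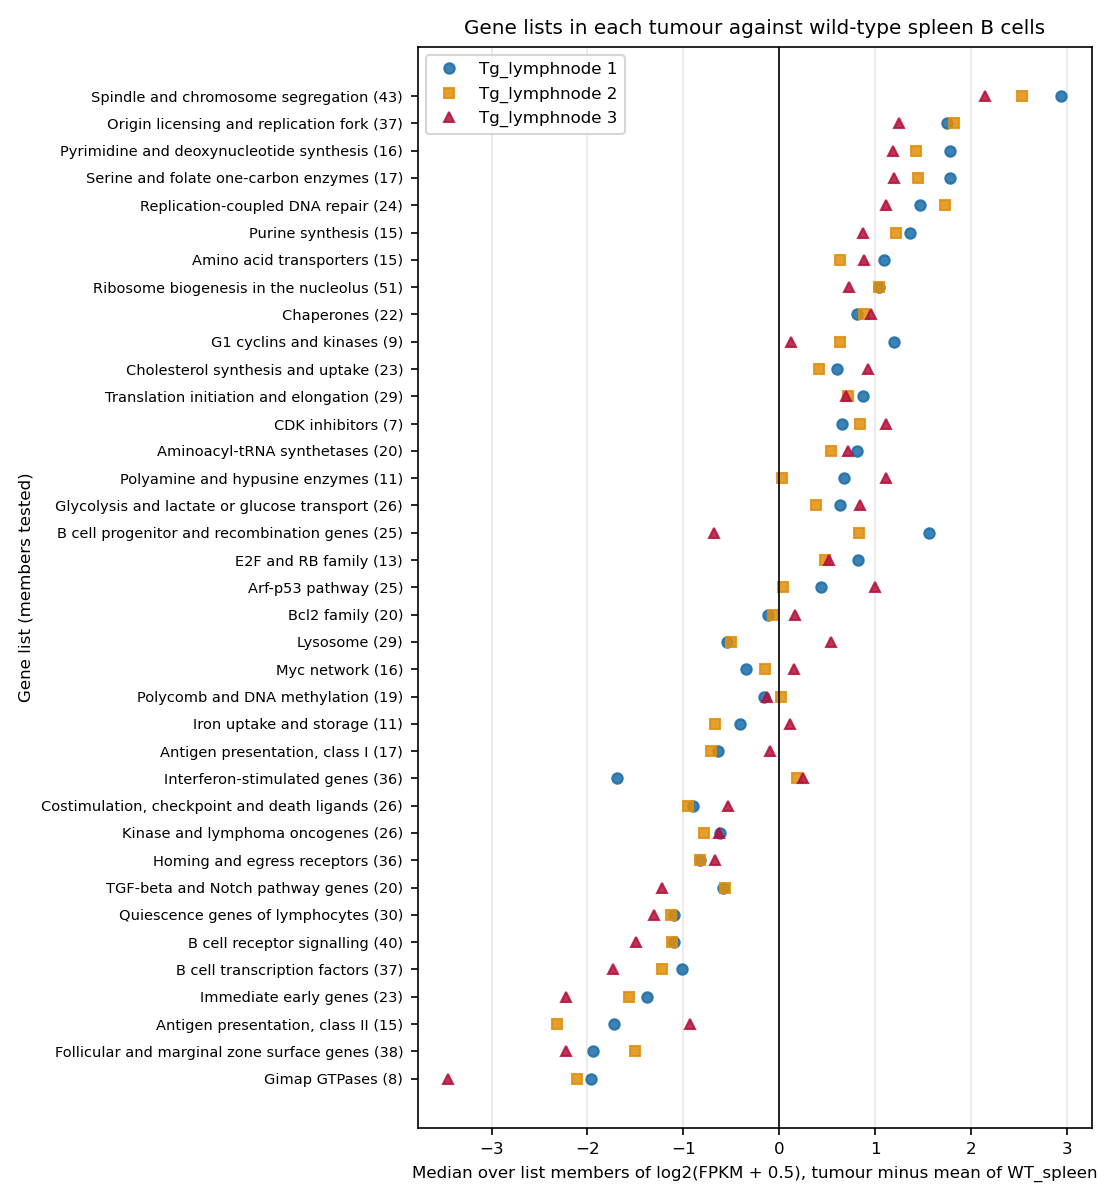
Median over the tested members of each gene list of the difference in log2(FPKM + 0.5) between a tumour and the mean of the 4 WT_spleen libraries, with 1 point for each of the 3 tumours and the number of tested members in brackets. Spindle genes lie highest, with medians of 2.14 to 2.94, and the tumours stand apart from each other in progenitor genes (-0.68 to 1.56) and interferon-stimulated genes (-1.70 to 0.25).

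Among chromatin genes the split was even, with 6 of 19 Polycomb and DNA methylation genes higher and 6 lower. Uhrf1, which guides maintenance methylation to replicated DNA, stood at 894, 821 and 543 FPKM in tumours, against 97.1, 117, 116 and 131 FPKM in WT_spleen (log2 fold change 2.68, SE 0.20, adjusted p = 0.000116). The Polycomb subunits Cbx2 and Cbx7 moved in opposite directions. Cbx2 stood at 80.3, 128 and 52.3 FPKM in tumours and 15.5, 12.5, 16.5 and 21.8 FPKM in WT_spleen (log2 fold change 2.29, SE 0.35, adjusted p = 0.00188), and Cbx7 stood at 126, 159 and 189 FPKM in tumours and 614, 543, 729.7 and 587 FPKM in WT_spleen (log2 fold change -1.97, SE 0.18, adjusted p = 0.000218). Tet1, which oxidises methylcytosine, stood at 0.8, 2.9 and 3.1 FPKM in tumours and 14.3, 13.8, 14.0 and 9.1 FPKM in WT_spleen (log2 fold change -2.38). Tet1 passed the filter only through the wild-type libraries, so no test is read for it.

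Genes of the mature B cell fell across most lists, also in tumours 1 and 2, which kept Ebf1. Of 40 genes of B cell receptor signalling, 0 rose and 28 fell (median -1.46), and 33 fell without tumour 3 (median -1.26). Cr2, the complement receptor CD21, stood at 77.1, 126 and 37.9 FPKM in tumours, against 2601, 2365, 3121 and 2453 FPKM in WT_spleen (log2 fold change -5.18, SE 0.36, adjusted p = 9.55e-05). Blk, a Src family kinase, stood at 495, 691 and 18.9 FPKM in tumours 1, 2 and 3 and 2252, 1870.5, 2242 and 1951 FPKM in WT_spleen (log2 fold change -3.46, SE 1.11, adjusted p = 0.0402). That call was lost without WT_spleen 1, WT_spleen 3, WT_spleen 4 or WT_spleen 6 (adjusted p = 0.0757 to 0.0844) and held without tumour 3, where the log2 fold change was -1.82 (adjusted p = 0.000172). Of the 12 B lineage markers, 7 were called lower with all libraries, 10 without tumour 3, and 4 without any one of the 4 WT_spleen libraries. Cd79a stood at 2113 and 1673 FPKM in tumours 1 and 2, against 3764, 3465, 3626 and 2885 FPKM in WT_spleen, and fell without tumour 3 (log2 fold change -0.86, adjusted p = 0.0103). Pax5 stood at 1268 and 1402 FPKM in tumours 1 and 2, against 3168, 3151, 3175 and 2152 FPKM in WT_spleen, and fell without tumour 3 (log2 fold change -1.11, adjusted p = 0.00426). Tumours 1 and 2 lay below every wild-type library for Cd79a and Pax5. Ebf1 did not pass the test without tumour 3 (adjusted p = 0.289).

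Of 37 transcription factors of B cells, 1 rose and 21 fell, and 26 fell without tumour 3. Bcl6, the factor of germinal centres, stood at 11.0, 14.2 and 20.7 FPKM in tumours, against 194, 149, 216 and 191 FPKM in WT_spleen (log2 fold change -3.61, SE 0.25, adjusted p = 9.55e-05). Mef2c stood at 361, 153 and 122 FPKM in tumours and 1257, 1133, 1227 and 1249 FPKM in WT_spleen (log2 fold change -2.68, SE 0.34, adjusted p = 0.000841), and its relative Mef2b fell as well (log2 fold change -3.27). In Bcl6 and Mef2c every tumour lay below every wild-type library. Myb, a factor of progenitors, was the member that rose, at 724, 456 and 223 FPKM in tumours 1, 2 and 3 and 185, 172, 158 and 150.2 FPKM in WT_spleen (log2 fold change 1.34, SE 0.35, adjusted p = 0.0192). Its call was lost without tumour 2 or WT_spleen 6 (adjusted p = 0.0508 to 0.0615).

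Many surface and homing receptors fell. Of 38 follicular and marginal zone surface genes, 27 fell (median -2.13) and 1 rose. The member that rose was Marco, a scavenger receptor of macrophages, at 129, 67.2 and 109.7 FPKM in tumours and 31.6, 43.3, 13.5 and 34.4 FPKM in WT_spleen (log2 fold change 1.78, SE 0.42, adjusted p = 0.0119). Tnfrsf17, the plasma cell receptor BCMA, stood at 0, 1.4 and 5.8 FPKM in tumours, against 26.8, 30.9, 37.4 and 31.7 FPKM in WT_spleen (log2 fold change -4.14). It passed the filter only through the wild-type libraries, so no test is read for it. Of 36 homing and egress receptors, 0 rose and 18 fell (median -0.68). Ccr6, a chemokine receptor of mature B cells, stood at 97.5, 64.5 and 43.3 FPKM in tumours and 755, 680.5, 914 and 629.6 FPKM in WT_spleen (log2 fold change -3.50, SE 0.27, adjusted p = 0.000125). Rgs13, which dampens chemokine receptor signals, stood at 0, 0.7 and 1.6 FPKM in tumours and 124, 58.2, 45.9 and 87.0 FPKM in WT_spleen (log2 fold change -6.10). No test is read for Rgs13 either, since it passed the filter only through the wild-type libraries. All 8 Gimap GTPases tested, genes that serve lymphocyte survival, fell (median -2.59). Gimap8 stood at 128, 190.3 and 54.1 FPKM in tumours, against 1269.5, 1091, 1228 and 1313 FPKM in WT_spleen (log2 fold change -3.47, SE 0.37, adjusted p = 0.000452), and Gimap6 (log2 fold change -2.85) and Gimap7 (log2 fold change -2.71) fell with it.

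Antigen presentation by class II molecules fell, while class I genes showed few calls. Of 15 class II genes, 13 fell and 0 rose (median -1.69). H2-Ob, the beta chain of the regulator of peptide loading, stood at 855, 678 and 172 FPKM in tumours, against 4073, 3126, 4345 and 4390.3 FPKM in WT_spleen (log2 fold change -3.09, SE 0.51, adjusted p = 0.00301). H2-Oa, its alpha chain, stood at 189.7, 242 and 187 FPKM in tumours and 1202, 1251, 1295 and 1238 FPKM in WT_spleen (log2 fold change -2.60, SE 0.14, adjusted p = 8.04e-05). Cd74, the invariant chain, stood at 8756, 7678 and 21458 FPKM in tumours 1, 2 and 3, against 34613, 36510, 46424 and 41689 FPKM in WT_spleen (log2 fold change -1.81, SE 0.41, adjusted p = 0.0102). Tumour 3, low in B cell genes, was the highest of the tumours in Cd74 and the lowest in H2-Ob. Of 17 class I genes, 1 rose, Pdia3 (log2 fold change 1.03), a chaperone of the endoplasmic reticulum, and 1 fell, H2-Q6 (log2 fold change -1.41), whose reads may be shared with near-identical class I genes. Without tumour 3, 8 class I genes fell. Of 26 costimulatory, checkpoint and death ligand genes, 10 fell and 1 rose. Icosl, the ligand of Icos, stood at 169.8, 140.3 and 178 FPKM in tumours and 1199, 1129.6, 1510.5 and 1254 FPKM in WT_spleen (log2 fold change -2.96, SE 0.16, adjusted p = 8.04e-05). Cd40, the receptor for T cell help, stood at 56.1, 88.4 and 307 FPKM in tumours and 734, 793, 719 and 616 FPKM in WT_spleen (log2 fold change -2.62, SE 0.50, adjusted p = 0.00566), with tumour 3 the highest of the tumours. The member that rose was Pdcd1 (log2 fold change 1.43), the receptor PD-1, whose call was lost without WT_spleen 1 (adjusted p = 0.0503).

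Genes tied to rest and to fresh stimulation both fell. Of 30 quiescence genes of lymphocytes, 22 fell and 1 rose (median -1.38). Btg1, an antiproliferative gene, stood at 392, 244 and 102 FPKM in tumours, against 1755, 1970.0, 1167 and 1328 FPKM in WT_spleen (log2 fold change -2.83, SE 0.43, adjusted p = 0.00206). Klf4, a zinc finger factor that holds back division, stood at 5.9, 4.0 and 2.3 FPKM in tumours and 31.0, 62.4, 21.7 and 14.0 FPKM in WT_spleen (log2 fold change -2.71, SE 0.54, adjusted p = 0.00626). The member that rose was Il7r, the receptor for interleukin 7, at 427, 254 and 70.0 FPKM in tumours 1, 2 and 3 and 44.0, 21.6, 19.5 and 48.3 FPKM in WT_spleen (log2 fold change 2.66, SE 0.62, adjusted p = 0.0124). Of 23 immediate early genes, 13 fell and 1 rose. Jun stood at 15.9, 20.9 and 25.3 FPKM in tumours, against 423, 593, 206 and 61.5 FPKM in WT_spleen (log2 fold change -3.52, SE 0.70, adjusted p = 0.00678). Fos stood at 23.6, 12.2 and 8.4 FPKM in tumours and 243, 436, 96.4 and 27.1 FPKM in WT_spleen (log2 fold change -3.22, SE 0.88, adjusted p = 0.023), and its call was lost without tumour 2, tumour 3 or WT_spleen 1 (adjusted p = 0.0608 to 0.0897). Both were higher in WT_spleen 1 and 3 than in WT_spleen 4 and 6, the same pairs that Rpph1 separates. Against WT_spleen 1 and 3 alone, 13 immediate early genes fell, with Jun at -4.59 and Fos at -4.54 (log2 fold change). Against WT_spleen 4 and 6 alone, 10 fell, with Jun at -2.44 and Fos at -1.89, and Fos no longer passed (adjusted p = 0.119). The member called higher, Fosl2, lost its call without tumour 1, tumour 2, WT_spleen 1, WT_spleen 3, WT_spleen 4 or WT_spleen 6 (adjusted p = 0.0732 to 0.13).

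Of 26 kinase and lymphoma oncogenes, 5 rose and 12 fell. Ung, the uracil glycosylase, stood at 194, 160.3 and 86.5 FPKM in tumours, against 30.0, 58.7, 31.8 and 45.8 FPKM in WT_spleen (log2 fold change 1.79, SE 0.35, adjusted p = 0.00546), and rose with Mir17hg. Lmo2 stood at 354, 126 and 145 FPKM in tumours and 769, 851, 906 and 1042 FPKM in WT_spleen (log2 fold change -2.25, SE 0.34, adjusted p = 0.00195), and Bcl3 (log2 fold change -2.34), a partner of NF-kappa B, fell too. Of 20 TGF-beta and Notch genes, 2 rose and 9 fell, and 5 fell without WT_spleen 4. Tgfbr2, a TGF-beta receptor, stood at 446, 416 and 199 FPKM in tumours and 1240.0, 1238, 1156 and 1375 FPKM in WT_spleen (log2 fold change -1.91, SE 0.28, adjusted p = 0.00156). Dtx1, a Notch target of marginal zone B cells, stood at 20.5, 484 and 19.2 FPKM in tumours 1, 2 and 3, against 493, 658, 660.0 and 547 FPKM in WT_spleen (log2 fold change -3.32, SE 1.03, adjusted p = 0.0358). Tumour 2 nearly reached the lowest wild-type library, and the call was lost without tumour 1, tumour 3, WT_spleen 1, WT_spleen 3, WT_spleen 4 or WT_spleen 6 (adjusted p = 0.0686 to 0.144). Of 29 lysosomal genes, 2 rose and 5 fell, but 15 fell without tumour 3 and 3 without tumour 1. Gusb, beta-glucuronidase, stood at 590.1, 801 and 1423 FPKM in tumours, against 236, 265, 266 and 294 FPKM in WT_spleen (log2 fold change 1.73, SE 0.28, adjusted p = 0.00238), and Atp6v0d1 (log2 fold change -1.17), a subunit of the proton pump, fell.

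The Arf-p53 pathway and the Bcl2 family differed between tumours. Of 25 pathway genes, 7 rose and 4 fell, and 4 rose without tumour 1, without WT_spleen 1 or without WT_spleen 6. Trp53, the gene of p53, stood at 524, 479.9 and 363 FPKM in tumours and 389.9, 347, 407 and 377 FPKM in WT_spleen, and did not pass the test (adjusted p = 0.256), although it did without tumour 3 (adjusted p = 0.0421). Phlda3, a p53 target that restrains Akt, stood at 64.1, 8.3 and 90.1 FPKM in tumours 1, 2 and 3, against 4.1, 5.7, 0.6 and 1.8 FPKM in WT_spleen (log2 fold change 3.67, SE 0.91, adjusted p = 0.0156). Its call was lost without tumour 1 (adjusted p = 0.0516). Zmat3, another p53 target, stood at 203, 23.7 and 126 FPKM in tumours 1, 2 and 3, against 26.7, 20.1, 24.7 and 15.6 FPKM in WT_spleen (log2 fold change 1.97, SE 0.67, adjusted p = 0.0491), with the call lost without tumour 1, tumour 3, WT_spleen 1, WT_spleen 3, WT_spleen 4 or WT_spleen 6 (adjusted p = 0.081 to 0.136). Bbc3, the death gene Puma, stood at 100.1, 25.3 and 202 FPKM in tumours and 12.8, 31.4, 14.5 and 19.7 FPKM in WT_spleen (log2 fold change 2.09, SE 0.67, adjusted p = 0.04), with the call lost without tumour 1, tumour 3, WT_spleen 1, WT_spleen 4 or WT_spleen 6 (adjusted p = 0.0745 to 0.106). Tumour 2, the one with 502 FPKM of Cdkn2a, was the lowest of the tumours in Phlda3, Zmat3 and Bbc3, and for Zmat3 and Bbc3 it lay within the wild-type range. Sesn1, a stress sensor, stood at 373, 179.5 and 153 FPKM in tumours, against 757, 569, 536 and 638 FPKM in WT_spleen, and fell (log2 fold change -1.51, SE 0.30, adjusted p = 0.00619). Rrm2b (log2 fold change -1.10), a p53-induced subunit of ribonucleotide reductase, fell as well. Trp53 and Zmat3 were chosen after their values were seen.

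Of 20 Bcl2 family genes, 3 rose and 5 fell, and without tumour 3 1 rose and 8 fell. Without tumour 1, WT_spleen 1 or WT_spleen 6, too, 1 rose. Among the guardians, Bcl2 stood at 67.3, 111 and 31.5 FPKM in tumours, against 462, 434, 445 and 419 FPKM in WT_spleen, and fell (log2 fold change -2.82, SE 0.36, adjusted p = 0.000981). Mcl1 stood at 1369.6, 1172 and 833 FPKM in tumours and 3104, 3422, 3209.5 and 3939 FPKM in WT_spleen, and fell (log2 fold change -1.63, SE 0.22, adjusted p = 0.00114). The groups did not overlap for either. Bcl2l1, Bcl-xL, stood at 63.6, 59.0 and 1570.5 FPKM in tumours 1, 2 and 3, against 38.7, 43.3, 44.8 and 44.9 FPKM in WT_spleen, and did not pass the test (adjusted p = 0.156). Its level in tumour 3 stood far above those in the other 6 libraries. The A1 genes have near-identical copies, and of these Bcl2a1b (log2 fold change -1.99) fell and Bcl2a1d (log2 fold change -1.83) lost its call without tumour 1, tumour 2, WT_spleen 1 or WT_spleen 6 (adjusted p = 0.0513 to 0.0588). Among the killers, Bmf stood at 72.1, 47.0 and 23.7 FPKM in tumours, against 196, 185, 198 and 239.7 FPKM in WT_spleen, and fell (log2 fold change -2.23, SE 0.34, adjusted p = 0.0019). Bok stood at 21.9, 10.1 and 9.0 FPKM in tumours and 0.8, 1.7, 1.3 and 3.7 FPKM in WT_spleen, and rose (log2 fold change 2.60, SE 0.52, adjusted p = 0.00643). Bax stood at 656, 334 and 564 FPKM in tumours and 261, 301, 344 and 232 FPKM in WT_spleen (log2 fold change 0.82, SE 0.25, adjusted p = 0.033), with the call lost without tumour 1, tumour 3, WT_spleen 1, WT_spleen 3 or WT_spleen 6 (adjusted p = 0.0581 to 0.0951). Bcl2l11, the gene of Bim, stood at 83.3, 98.2 and 126 FPKM in tumours and 138, 109.6, 148 and 132 FPKM in WT_spleen, and passed the test without tumour 3 (adjusted p = 0.149 with all tumours, 0.0372 without tumour 3). The other 10 tested members, among them Bid and Bak1, did not pass with all libraries. Of these, Bcl2l2 (log2 fold change -1.38, adjusted p = 0.0164) and Bcl2a1a (log2 fold change -1.08, adjusted p = 0.0327) passed as lower without tumour 3.

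**Figure D4:**
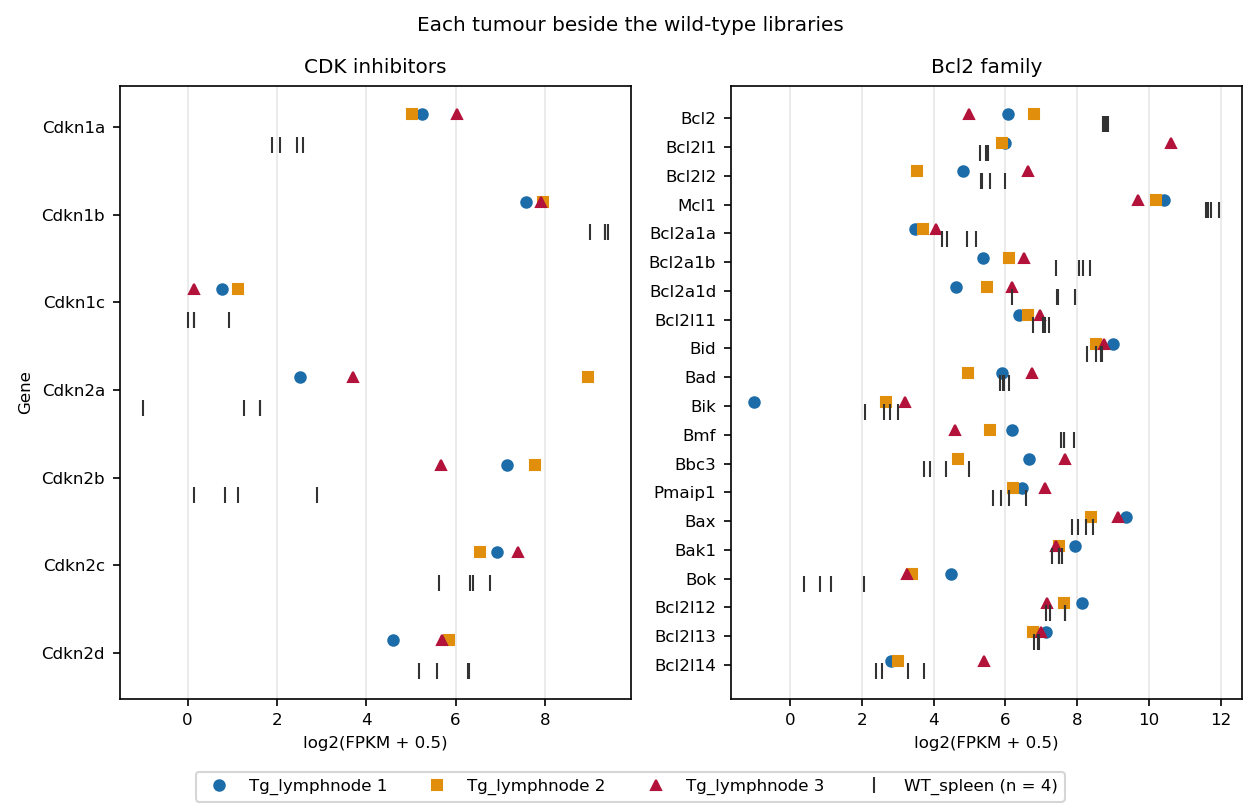
Log2(FPKM + 0.5) of the 7 CDK inhibitors (left) and the 20 tested Bcl2 family genes (right), with a symbol for each of the 3 tumours and a tick for each of the 4 WT_spleen libraries. Tumour 2 stands apart in Cdkn2a at 502 FPKM, tumour 3 in Bcl2l1 at 1570.5 FPKM, and all 3 tumours lie below WT_spleen in Bcl2 and Mcl1.

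Genes of B cell progenitors and of receptor gene recombination set the tumours apart from each other. Of 25 tested with all libraries, 6 rose and 1 fell, and without tumour 3 14 of 24 rose and 0 fell. The medians in tumours 1, 2 and 3 were 1.56, 0.83 and -0.68. Rag2, a subunit of the recombinase, stood at 39.8, 39.3 and 0.7 FPKM in tumours 1, 2 and 3, against 3.2, 1.4, 1.8 and 0.8 FPKM in WT_spleen, and rose without tumour 3 (log2 fold change 4.23, adjusted p = 0.000243; adjusted p = 0.132 with it). Rag1, the other subunit, stood at 171, 93.7 and 21.8 FPKM in tumours and 53.5, 37.1, 12.9 and 10.0 FPKM in WT_spleen, and rose without tumour 3 (log2 fold change 2.46, adjusted p = 0.0325). Tumours 1 and 2 thus held both recombinase genes above wild-type level. Tumour 3 lay within the wild-type range for Rag1, and its Rag2 value of 0.7 FPKM was close to the lowest wild-type value, 0.8 FPKM. Cd34, a surface protein of progenitors, stood at 13.8, 12.7 and 6.3 FPKM in tumours, against 1.4, 0, 1.0 and 1.0 FPKM in WT_spleen, and rose (log2 fold change 3.17, SE 0.57, adjusted p = 0.00387). The part of stroma or vessel cells in the rise of Cd34 was not tested. Dntt, the polymerase that adds bases at receptor gene joints, stood at 0, 3.1 and 0 FPKM in tumours and 5.1, 3.4, 5.5 and 12.1 FPKM in WT_spleen (log2 fold change -2.72). It was the member counted as lower, but it passed the filter only through the wild-type libraries, so no test is read for it. Among the tumours, tumour 1 alone was high in several genes of earlier precursors. Igll1, a part of the surrogate light chain, stood at 90.1, 0 and 0 FPKM in tumours 1, 2 and 3, against 2.8, 9.6, 1.0 and 2.0 FPKM in WT_spleen. Enpep, the peptidase BP-1 of precursors, stood at 148, 2.6 and 0 FPKM in the tumours and 0.9, 0.6, 0.2 and 0 FPKM in WT_spleen, too low in the other libraries to be tested. Lef1, a factor of the Wnt pathway, stood at 431, 75.1 and 18.6 FPKM in the tumours and 65.9, 63.2, 57.7 and 53 FPKM in WT_spleen. None of Igll1, Lef1 and Sox4 passed the test (adjusted p = 0.927, 0.683 and 0.946), and Sox4 stood at 175, 55.7 and 13.1 FPKM in the tumours and 48.9 to 67.1 FPKM in WT_spleen. Tg_spleen libraries held some of these genes too, with Sox4 at 66.6 to 385 FPKM, Igll1 at 2.1 to 75.1 and Lef1 at 32.4 to 149. Enpep was at 1.5 to 14.3 FPKM there, Rag1 at 90.8 to 442 and Rag2 at 7.5 to 76.8. Rag1, Rag2, Igll1, Enpep, Lef1 and Sox4 were chosen after their values were seen.

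Tumour 1 also stood apart in other ways. Interferon-stimulated genes had medians of -1.70, 0.19 and 0.25 in tumours 1, 2 and 3. Of 36 tested, 7 fell and 1 rose, and 12 fell without tumour 3. With any one library left out, 0 to 5 rose by limma, with the 5 found without tumour 1. Ifit3 stood at 6.0, 141 and 108 FPKM in the tumours, against 108, 181, 96.9 and 69.2 FPKM in WT_spleen, and Oasl1 at 8.5, 88.9 and 209 FPKM in the tumours and 161, 223, 144 and 102 FPKM in WT_spleen. Neither passed the test (adjusted p = 0.367 and 0.253), and tumour 1 was the lowest of the 7 libraries in both. Ddx58, the RNA sensor RIG-I, stood at 97.1, 239.8 and 94.7 FPKM in tumours and 551, 573, 500.4 and 477 FPKM in WT_spleen, and fell (log2 fold change -2.005, SE 0.31, adjusted p = 0.00228). Bst2, tetherin, was called higher (log2 fold change 2.36), at 7426 FPKM in tumour 3, and lost its call without tumour 2, WT_spleen 1, WT_spleen 3, WT_spleen 4 or WT_spleen 6 (adjusted p = 0.07 to 0.106). Dusp6, Etv5 and Spry4, known as targets of ERK signalling, were higher in tumour 1 than in the other two. Dusp6, a phosphatase of ERK, stood at 563, 81.0 and 44.8 FPKM in the tumours, against 451, 627, 340.1 and 466 FPKM in WT_spleen. Etv5, an Ets factor, stood at 159, 9.0 and 7.7 FPKM in the tumours, against 39.2, 44.4, 28.7 and 36.2 FPKM in WT_spleen, and Spry4, a feedback inhibitor, stood at 45.2, 1.2 and 1.3 FPKM in the tumours and 2.6, 2.1, 3.1 and 4.3 FPKM in WT_spleen. Tumours 2 and 3 lay below every wild-type library for Dusp6 and Etv5, and both genes passed the test as lower without tumour 1 (adjusted p = 0.000916 and 0.00242). Ifit3, Oasl1, Dusp6, Etv5 and Spry4 were chosen after their values were seen.

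Counted over all genes, 281 lay at least 4-fold above the wild-type range in tumour 3, with neither other tumour 2-fold or more above it. In the same sense 175 lay at least 4-fold below the range, with neither other tumour 2-fold or more below it. The other tumours could still lie beyond the range on the opposite side. Ly6k, for example, was counted above the range in tumour 3 and below it in tumour 2. In tumour 1 the counts were 49 above and 92 below, and in tumour 2 they were 53 above and 30 below. By comparison, 1000 genes lay at least 2-fold above the range in all 3 tumours and 641 at least 2-fold below it. Ephb2, an ephrin receptor chosen after its values were seen, is an example for tumour 3, at 1.0, 0.2 and 290.5 FPKM in tumours 1, 2 and 3 and 0.5, 0.3, 0.9 and 1.1 FPKM in WT_spleen.

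Genes that share a chromosome moved together in single tumours. For the 9557 of 10784 genes with a mean of at least 20 FPKM that matched 1 chromosome by symbol, the median difference from WT_spleen was taken per chromosome, after each library was centred. Over the 19 autosomes these medians ran from -0.15 to 0.16 in the WT_spleen libraries and from -0.17 to 0.17 in Tg_spleen. In tumour 1, chromosome 3 stood at 0.50 (459 genes, 68.4% of them above 0), and it was the only autosome of that tumour beyond 0.2 in either direction. In tumour 2, 8 autosomes were beyond 0.2, or 7 at a mean of at least 100 FPKM, without chromosome 1. Chromosomes 19, 13 and 10 stood at -0.54, -0.49 and -0.39, and chromosomes 5, 14, 11, 12 and 1 stood at 0.40, 0.29, 0.27, 0.26 and 0.20. In tumour 3, chromosome 12 was the only autosome beyond 0.2, at 0.29, and it was also the one that varied most among the WT_spleen libraries. The pattern was not shared between tumours except for chromosome 12 in tumours 2 and 3. Copy number of DNA was not measured in these libraries.

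**Figure D5:**
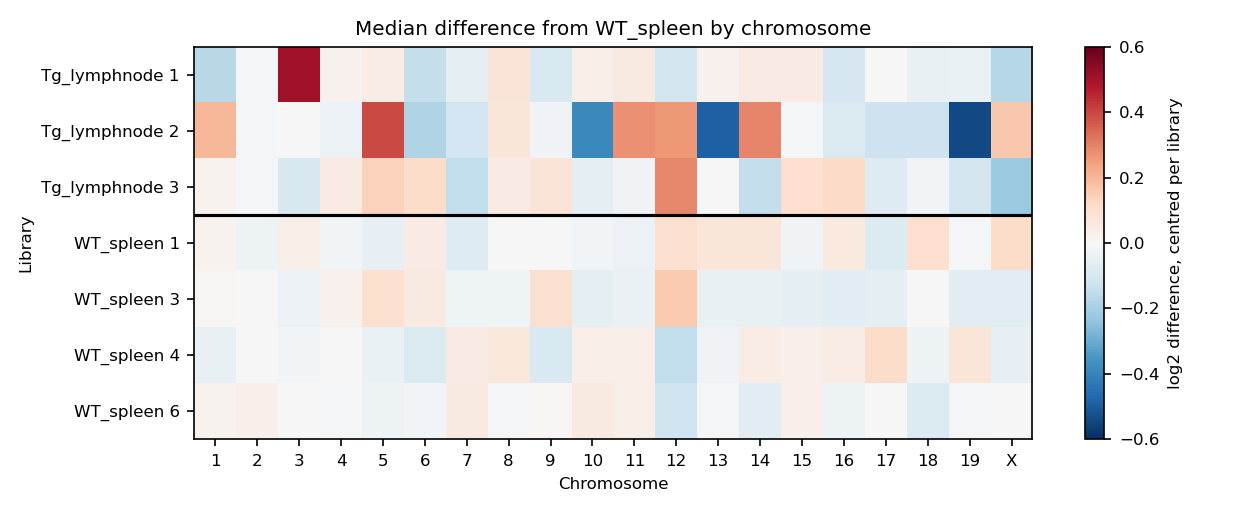
Median over genes of the difference in log2(FPKM + 0.5) from the mean of WT_spleen, centred for each library, by chromosome (columns) in the 3 Tg_lymphnode and 4 WT_spleen libraries (rows). Chromosome 3 stands at 0.50 in tumour 1 and chromosome 19 at -0.54 in tumour 2, while autosomes of the wild-type libraries stay between -0.15 and 0.16.

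Markers of other cells gave the following counts. The 18 T cell markers summed to 1084, 2434 and 18250 FPKM in tumours 1, 2 and 3, against 798 to 1146 FPKM in WT_spleen. In tumour 3 most of the sum came from Cd4, at 9468 FPKM, and Cd8b1, at 7615 FPKM. Of the 18 markers, 6 rose and 0 fell, and 12 rose without tumour 1. Zap70, a kinase of the T cell receptor, stood at 105, 113 and 68.7 FPKM in tumours, against 15.0, 26.9, 20.1 and 30.5 FPKM in WT_spleen (log2 fold change 2.04, SE 0.31, adjusted p = 0.00194). For NK and cytotoxic cells 8 of 12 fell, and 5 without WT_spleen 3 or WT_spleen 6, with Ncr1, the NK receptor NKp46, at 4.9, 11.4 and 12.8 FPKM in tumours and 88.4, 102, 64.7 and 124 FPKM in WT_spleen (log2 fold change -3.29, SE 0.38, adjusted p = 0.00054). All 8 red pulp macrophage markers fell (median -3.84), with Treml4 at 5.5, 10.8 and 12.7 FPKM in tumours and 172, 255, 168 and 222 FPKM in WT_spleen (log2 fold change -4.39, SE 0.31, adjusted p = 9.55e-05). Of 18 markers of macrophages and monocytes, 11 fell and 3 rose. Mrc1, the mannose receptor, fell (log2 fold change -4.12), and Emr1, known as F4/80, fell (log2 fold change -3.58). Lyz2, lysozyme, rose (log2 fold change 1.79), but not without tumour 1 (adjusted p = 0.0573).

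Genes of stroma and glands are given by their values. Many members of these lists passed the filter on low values only through the tumours and so had to differ, and counts of calls over them are not read as a result. The wild-type libraries alone would not have passed 11 of 18 tested fibroblast and matrix genes, 6 of 10 genes of lymph node stroma, 8 of 15 of endothelium, 6 of 10 of salivary gland and 12 of 18 of pancreas. Col1a1, a chain of type I collagen, stood at 106, 133 and 87.2 FPKM in tumours, against 1.0, 0.3, 1.7 and 1.1 FPKM in WT_spleen (log2 fold change 6.23, SE 0.42, adjusted p = 9.29e-05). Cxcl13, the stromal chemokine that Cxcr5 reads, stood at 79.9, 55.5 and 45.3 FPKM in tumours, against 0, 1.0, 1.5 and 0 FPKM in WT_spleen. Lyve1, of lymphatic vessels, stood at 43.0, 40.1 and 39.5 FPKM in tumours and 0, 0, 0.3 and 0.7 FPKM in WT_spleen. Cxcl13 and Lyve1 passed the filter only through the tumours, and no test is read for them. Psp, a secreted protein of the parotid gland, stood at 735, 2985 and 4968 FPKM in tumours 1, 2 and 3, against 0, 0, 0.9 and 0 FPKM in WT_spleen. Ctrb1, the pancreatic chymotrypsinogen, stood at 809, 452 and 2255 FPKM in tumours and 28.6, 18.9, 1.0 and 2.0 FPKM in WT_spleen (log2 fold change 7.11). Both were highest in tumour 3. No gene of the epithelial list was called among the 5 tested by limma, of which Cdh1 stood at 1.6, 4.0 and 431 FPKM in tumours 1, 2 and 3 and 2.2, 1.9, 5.1 and 7.8 FPKM in WT_spleen.

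The remaining marker lists follow. Of 12 conventional dendritic cell markers, 3 rose and 3 fell, and 5 fell without tumour 3. Of 12 plasmacytoid dendritic cell markers, 1 rose and 1 fell, and without tumour 3 6 fell. For 13 neutrophil and mast cell genes no count of rises is read, since 3 of them would not have passed the filter in the wild-type libraries alone. For 13 genes of erythroid cells and platelets 2 rose and 2 fell. Of 10 muscle genes tested, 1 fell. The wild-type libraries alone would not have passed 2 of the 10, and no count of rises is read from this list. Of 8 adipocyte genes tested, 4 would not have passed the filter in the wild-type libraries alone, and no count is read from them.

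Tumours were also tested against Tg_spleen, B220-enriched cells of the same genotype, to see which of these values differ from transgenic B cells of the spleen. This comparison shares the 3 tumours with the one above, so the values are set side by side only. Of 14692 genes tested, 523 were higher in tumours (3.56%) and 351 were lower (2.39%). These counts depended on single libraries, with 116 to 367 higher and 93 to 339 lower when 1 was left out, and array weights gave 1215 higher and 1145 lower. Myc stood at 2123, 2179 and 1759 FPKM in tumours, against 1017, 1275, 2408 and 1525 FPKM in Tg_spleen, and did not pass the test (log2 fold change 0.45, SE 0.31, adjusted p = 0.426). Of the 43 spindle genes 0 rose and 0 fell (median 0.18), and of the 51 ribosome biogenesis genes 0 rose and 0 fell (median 0.13). In this comparison limma called 3409 genes at an unadjusted p under 0.05. A p that misses the threshold does not show that the values were alike.

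Several of the genes named above did differ from Tg_spleen, and the following were chosen after their values were seen. Car12 stood at 165, 176 and 332 FPKM in tumours, against 25.6, 40.8, 60.5 and 34.6 FPKM in Tg_spleen (log2 fold change 2.45, SE 0.36, adjusted p = 0.00768). Cdkn2b stood at 141, 218 and 50.4 FPKM in tumours and 11.2, 5.2, 14.7 and 6.3 FPKM in Tg_spleen (log2 fold change 3.67, SE 0.56, adjusted p = 0.00922). In both genes every tumour lay above every Tg_spleen library, and both kept their call without each library in turn. Ccnd1 stood at 527, 565 and 544 FPKM in tumours and 123, 139, 324 and 202 FPKM in Tg_spleen (log2 fold change 1.57, adjusted p = 0.029), with the call lost without any one library other than Tg_spleen 4 (adjusted p = 0.0535 to 0.0984). Mir17hg stood at 539, 477 and 379 FPKM in tumours, against 117, 114, 219 and 247 FPKM in Tg_spleen (log2 fold change 1.49, adjusted p = 0.0337), with the call lost without tumour 1, tumour 2, Tg_spleen 2 or Tg_spleen 3 (adjusted p = 0.0772 to 0.108). These 4 genes were also called higher against WT_spleen. Cxcr5 stood at 56.7, 111 and 31.3 FPKM in tumours, against 1211, 957, 393 and 1173 FPKM in Tg_spleen (log2 fold change -3.86, SE 0.51, adjusted p = 0.00501). Faim3 stood at 104, 251 and 118 FPKM in tumours and 2186, 1860.1, 698 and 1982 FPKM in Tg_spleen (log2 fold change -3.40, adjusted p = 0.00572). Cxcr5 and Faim3 lay in every tumour below every Tg_spleen library. Mcl1 stood at 1369.6, 1172 and 833 FPKM in tumours and 2981, 2621, 1806 and 2904 FPKM in Tg_spleen (log2 fold change -1.20, adjusted p = 0.0409), with the call lost without any one library other than Tg_spleen 4 (adjusted p = 0.0701 to 0.12). Bmf stood at 72.1, 47.0 and 23.7 FPKM in tumours and 233, 246, 160.0 and 275 FPKM in Tg_spleen (log2 fold change -2.36, adjusted p = 0.0105). These 4 were also called lower against WT_spleen, and Cxcr5, Faim3 and Bmf kept their call against Tg_spleen without each library in turn. The fibroblast genes summed to 848 to 1029 FPKM in tumours and 34.7 to 66.9 FPKM in Tg_spleen. Of 8 red pulp macrophage genes, 8 fell against WT_spleen and 7 against Tg_spleen.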

How the data were processed

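FPKM values were made and deposited by the authors, 1 table per library, per the file headers. The submitters' processing notes name TopHat2 2.0.8, HTSeq 0.5.3p9, SAMtools and the mm9 build. The annotation and the rule that sets the scale of the values are not given in the sources used here. Values were kept as deposited, and log2(FPKM + 0.5) of genes with at least 1 FPKM in at least 3 libraries was fitted with limma 3.58.1 (R 4.3.3, trended and robust variance) on the 2 groups compared. P-values were adjusted by the Benjamini-Hochberg method over all genes tested, and a gene was called at an adjusted p under 0.05. Every adjusted p in the text comes from these limma fits. Tables and plots were made with Python 3.11.15, NumPy 2.4.6, pandas 2.3.3 and Matplotlib 3.10.9. The fits were tested on simulated data first.

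Gene lists and members were chosen with earlier results of these data known. The text names Myc, the 12 largest rises and 12 largest falls among called genes with no overlap between groups, at least 100 FPKM in the higher group and a value above 0 in every library. Markers of other cells, clone-named genes, small RNAs and antigen receptor genes were left out of that ranking. For each list it names up to 3 called members with the largest change and up to 2 that moved against the majority, and it may name every member of the Myc network, CDK inhibitor, Bcl2 family and B lineage lists. Other genes are said to be chosen after their values were seen, or serve as markers of a cell type or sex. Rpph1 is among them. Some members of the lists are counted but not reported here by name.

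Alternatives changed the pseudocount, the filter, the scaling, library weights, the variance model, the groups in the fit and the libraries. Immunoglobulin heavy chain constant genes were not analysed here.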

Additional observations from a re-analysis of the deposited data

Results flagged for a closer look

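Among 280 genes examined, 16 had 1 WT_spleen library flagged as apart from the other 3, and chance alone flags about 1 gene in 20. Some flagged gaps were small, as for Espl1 at 19.9, 16.4, 20.5 and 20.5 FPKM and Psp at 0, 0, 0.9 and 0 FPKM. Of genes that rose in tumours, the library apart stood at 81.7 FPKM for Tfdp1, at 18.1 for E2f8, at 16.4 for Espl1, at 5.0 for Slc1a4 and at 28.3 for Fabp4. Ccl19 and Psp, which passed the filter only through the tumours and have no test read, had libraries at 1.2 and 0.9 FPKM. Of genes that fell, the library apart stood at 499.4 FPKM for Sat1 and at 5.4 for Xcr1. Tet1, which passed the filter only through the wild-type libraries, had a library at 9.1 FPKM. Pax5, which did not pass the test with all libraries, had a library at 2152.2 FPKM, and Sox4 and Mir17, which did not pass the test, had libraries at 67.1 and 10.6 FPKM. Cdkn1c had a library at 1.4 FPKM. WT_spleen 6 stood apart in the sex-linked genes, with Xist at 1368 FPKM and Uty at 0.5 FPKM.

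The tumours differed from the spleen cells of the same genotype, Tg_spleen, in 874 genes, by limma's test of that difference. Leaving out 1 library left 116 to 367 genes higher and 93 to 339 lower, against 523 and 351 with all libraries, and array weights gave 1215 and 1145.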

How the results depend on the processing

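Against WT_spleen, 2520 to 3122 genes were higher and 2397 to 3085 lower under other pseudocounts, filters, scalings, library weights, variance models and a fit of all 3 groups. These include a filter of 10 FPKM with a pseudocount of 5, chosen after seeing the data. The share of calls that were higher was 53.4% as deposited, 45.6% after rescaling to genes of no other cell type and 47.5% after quantile normalization. With WT_spleen 1 and 3 only, 1383 genes were higher and 870 lower, and with WT_spleen 4 and 6 only, 1411 and 882; these fits hold 5 libraries. Leaving out 1 library gave 2292 to 3093 higher and 1904 to 3161 lower. With the replicate number as a block, 0 genes were higher and 0 lower by limma in either comparison, since only 2 numbers are shared by the groups and the other libraries drop out. At an unadjusted p under 0.05 this fit had 3784 genes against WT_spleen and 2187 against Tg_spleen. Same-numbered libraries share only a number: the correlations of their deviations from the group means were 0.036 and -0.007 against WT_spleen, and -0.023 and 0.051 against Tg_spleen. Against Tg_spleen, array weights gave 1215 higher and 1145 lower, the fit of all 3 groups 1065 and 1093, and a filter of 5 FPKM 324 higher, and the cause was not tested. Leaving out 1 library there gave 116 to 367 higher and 93 to 339 lower.

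Of 208 called genes among those named or examined, 177 kept their call without each library in turn and 31 lost it without at least 1. Of the 72 that were not called, 29 took both signs with 1 library left out, and 11 of these passed the test without at least 1 library. Their log2 fold changes included -1.52 to 2.14 for Cd7, -4.57 to 1.45 for Vpreb3, -2.57 to 1.31 for Cox6a2, -1.55 to 2.46 for Cplx2 and -1.78 to 2.55 for Uchl1, all 5 called without tumour 3. For Cd7 and Vpreb3 that call had the opposite sign to the value with all libraries. At a mean of at least 100 FPKM, also chosen after seeing the data, chromosome 1 of tumour 2 stood at 0.17, so that 7 of its autosomes and not 8 were beyond 0.2. Of 60 chromosome medians 3 changed sign, each of at most 0.028 in size at a mean of at least 20 FPKM, on chromosome 13 in tumours 1 and 3 and on chromosome 3 in tumour 2. The files hold no counts, so precision at low FPKM is limited by an unknown depth.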
